A study of Rattus norvegicus with 10 samples.

Results

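The assembled long noncoding RNAs (lncRNAs) described here are those that lay in loci of 6 or more transcripts in the brains of rats subjected to middle cerebral artery occlusion (MCAO). Transcripts whose spans overlapped on the same chromosome and strand, directly or through others, were joined into a locus, and every transcript of a locus with at least 6 was taken. This rule used positions only, and gave 913 of the 1924 assembled lncRNAs, in 91 of 676 loci. Of the other lncRNAs, 653 lay in 227 loci of 2 to 5 transcripts and 358 were alone in their locus. RNA was sequenced from the left and the right brain tissue of 5 male Sprague Dawley rats (P45, P52, P61, P71 and P72) 24 h after transient MCAO, giving 5 left and 5 right libraries. The sample labels give the side but not which side was occluded, and the right was taken as the ischemic hemisphere. The drawing of the study design shows it so, and the study calls upregulated a transcript that its list gives as lower on the left than on the right. Its deficit scale names the right paw, which would go with a lesion of the left, and if the sides were exchanged every sign below would flip. The left hemisphere came from the same operated animal, so it was a paired nonischemic tissue and not tissue of an unoperated rat.

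Long noncoding RNAs are transcripts with no apparent coding potential, and many are spliced and polyadenylated like mRNAs. A locus may yield several isoforms, which differ in their first or last exons or in the exons they keep. Many lncRNAs of the brain are restricted to particular cell types, and in ischemic tissue neurons die while microglia, astrocytes and invading leukocytes respond. Where isoforms overlap, a short sequenced fragment often fits several of them, and programs such as Cufflinks divide such fragments among the isoforms by a likelihood model. The level of a single isoform therefore rests on that division, and the sum over a locus does so less.

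Levels were given in FPKM, the fragments per kilobase of transcript scaled to the mapped fragments of the library, so that transcripts of different length can be compared. Reads per library were not used here, and the depth of each library relative to the deepest was estimated from the spacing of its lowest values. It was 64.4% to 100% in the left libraries and 60.3% to 80.7% in the right libraries, and was lower on the right in 4 of 5 animals (mean log2 difference -0.283, exact sign-flip permutation test over 5 animals, two-sided p = 0.125). With 5 pairs of libraries this test cannot give a p under 0.0625. All positions are in the rn5 build. Sequence and gene annotation of that build were not used here, so loci are given by position, and neither neighbouring genes nor markers of brain cell types were examined.

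The 91 loci lay on 21 chromosomes, 45 of them on the plus and 46 on the minus strand. Chromosome 2 held 13, chromosome 1 held 9 and chromosome 14 held 8. A locus held 6 to 29 transcripts (median 9), and 36 loci held at least 10. The locus with most transcripts was chr2:126503053-126791939 on the minus strand, with 29. It was followed by chr10:25789351-26253611 with 25, chr1:132545572-132715477 with 22, chr13:91877020-91976319 with 21 and chr14:109499980-110010889 with 20. Just inside the limit were 19 loci of 6 transcripts, with a median summed level of 2.79 FPKM. Just outside it were 25 loci of 5 transcripts, with a median of 2.25 FPKM.

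The loci were long and their transcripts overlapped in much of their exonic sequence. The median locus spanned 80100 nt, of which 5877 nt were exonic in at least 1 transcript, and a median of 70.5% of that exonic length belonged to 2 or more transcripts. No pair of transcripts of a locus had the same chain of introns. In 6 loci an intron was shared by every transcript, and 458 of the 913 transcripts (50.2%) had an intron that no other transcript of their locus had. Transcripts of 2 exons made up 26.3% of these lncRNAs, 51.8% of the lncRNAs in loci of 2 to 5 and 81.0% of those alone in their locus. Only 2 of the 91 loci overlapped an assembled lncRNA on the opposite strand.

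Single isoforms of these loci were low. The median of their mean levels was 0.297 FPKM, against 0.683 FPKM in loci of 2 to 5 transcripts and 1.33 FPKM for lncRNAs alone in their locus. A mean of at least 0.1 FPKM, the limit for testing, was reached by 729 of the 913, and a mean of at least 1 FPKM by 129. Summed over its transcripts a locus reached 1.06 to 186 FPKM, with a median of 4.14 FPKM. Together these loci held 21.1% ± 2.38 (SD, 10 libraries) of the FPKM of all assembled lncRNAs.

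A few loci carried most of that level. The 7 loci with a mean sum of at least 50 FPKM held 63.0% ± 4.59 (SD, 10 libraries) of the summed FPKM of the 91. The highest was chr1:118466091-118692946 on the plus strand, a locus of 10 transcripts at 207 ± 45.9 FPKM (SD, n = 5) in the left and 165 ± 93.3 FPKM (SD, n = 5) in the right hemisphere. It was followed by chr1:222799882-222858973 (16 transcripts) at 143 ± 62.0 and 151 ± 23.1 FPKM, and by chr3:99167525-99213023 (7 transcripts) at 120 ± 28.1 and 90.0 ± 25.5 FPKM. The locus chr2:51666900-51880288 (18 transcripts) was at 84.4 ± 43.4 and 78.9 ± 40.1 FPKM, and chr1:119469792-119758493 (8 transcripts) at 92.2 ± 14.3 and 63.4 ± 30.3 FPKM. None of these 5 sums passed the test between the hemispheres (limma, adjusted p from 0.178 to 0.992).

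In 3 of these 5 loci the level lay in a very short isoform. TCONS_00011213, of 219 nt in 2 exons, held 97.0% of the highest locus, TCONS_00060391, of 302 nt in 3 exons, held 91.04% of the chromosome 2 locus, and TCONS_00013304, of 238 nt in 3 exons, held 76.8% of chr1:119469792-119758493. Among all 913 lncRNAs, 10 were shorter than 300 nt. These 10 made up 22.7% of the summed FPKM of the 91 loci (10.1% to 32.8% over the libraries). They made up 3.32% (1.03% to 5.09%) when each FPKM was multiplied by the full transcript length. This product is only a rough guide to fragments and was not checked against counts of them. FPKM divides by length, so a short isoform needs few fragments for a high value.

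In most loci no isoform dominated. The isoform with the highest mean share of its locus, called the leading isoform, held a median of 29.7% of the locus sum, and held at least 50% in 10 of 91 loci. The lowest leading shares among loci with a mean sum of at least 1 FPKM were 11.1% for TCONS_00038162 in chr14:109499980-110010889, 12.4% for TCONS_00034416 in chr13:91877020-91976319 and 12.9% for TCONS_00037572 in chr14:72486365-72654817. The leading isoform was the longest transcript of its locus in 8 loci and the shortest in 27.

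Which isoform was highest changed from library to library. The same isoform was the highest in all 10 libraries in 11 of 91 loci (12.1%), against 63 of 227 loci (27.8%) of 2 to 5 transcripts, where fewer isoforms compete. In 6 of the 11 it was also ahead of the next isoform by 1.5 times in every library. A median of 3 and a maximum of 9 different isoforms were the highest of a locus across the 10 libraries, and 22 loci had at least 5. The isoform that led by its mean share was under 0.001 FPKM in at least 1 library in 27 loci.

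**Figure D1:**
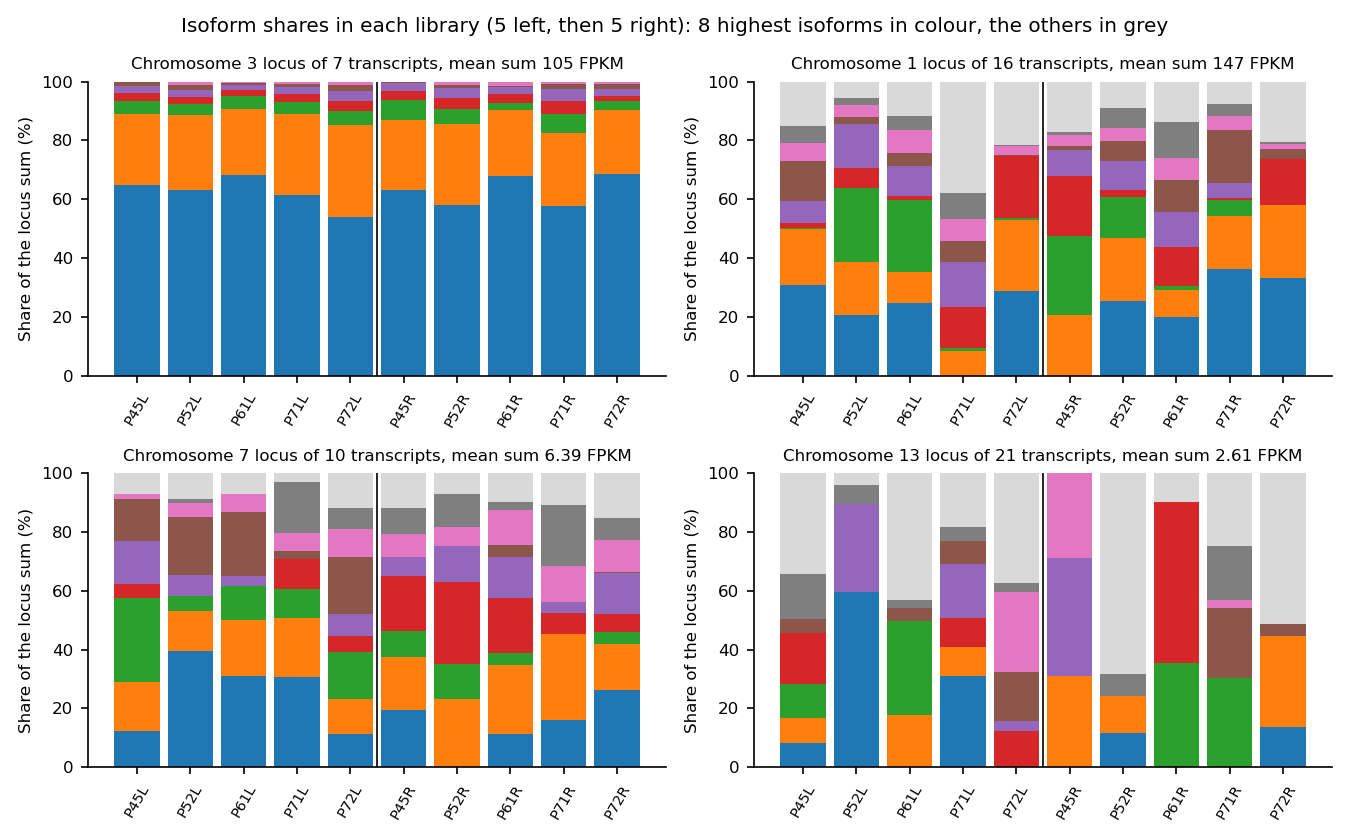
Percent of the locus sum held by each isoform (y axis) in each library (x axis, 5 left then 5 right) for 4 loci, with the 8 isoforms of highest mean share in colour and the others in grey. The chromosome 3 locus was divided much alike in all libraries, its leading isoform holding 54.0% to 68.5%, whereas the highest isoform of the chromosome 13 locus changed from library to library.

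The plot of isoform shares shows both extremes. TCONS_00066954 held 54.0% to 68.5% of chr3:99167525-99213023, and TCONS_00011213 held 95.4% to 98.4% of chr1:118466091-118692946. At chr1:222799882-222858973, TCONS_00008188 was at 36.0, 30.7, 26.3 and 71.3 FPKM in the left libraries of P45, P52, P61 and P72 and at 39.8, 34.9, 47.8 and 56.7 FPKM in the right libraries of P52, P61, P71 and P72. It was under 0.001 FPKM in the left library of P71 and in the right library of P45. The sum of that locus in those 2 libraries was 93.9 and 123 FPKM, so the locus was still high where its leading isoform was listed near 0. In the same libraries TCONS_00012611, which lies on the minus strand like TCONS_00008188 and ends at the same base, was at 22.6 and 13.2 FPKM, and was under 0.01 FPKM in all 8 others. The near-zero level of the one and the presence of the other fell in the same 2 libraries, and these came from different animals and sides.

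A swing of this kind was common. Of the 913 lncRNAs, 241 (26.4%) were under 0.001 FPKM in at least 1 library and at or above 1 FPKM in another, and 74 of the 91 loci held at least 1 of them. The same was true of 21.7% of lncRNAs in loci of 2 to 5 and of 3.63% of those alone in their locus. Whole loci varied less. The sum of a locus differed by a median of 3.79-fold between its lowest and its highest library (1.46-fold to 20.5-fold), and by at least 10-fold in 10 loci. The leading isoform differed by at least 10-fold in 42 loci, with values under 0.001 FPKM counted as 0.001.

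Values under 0.001 FPKM made up 35.1% ± 2.19 (SD, n = 5 animals) of all values of these lncRNAs, 16.4% ± 1.70 in loci of 2 to 5 and 0.754% ± 0.629 for lncRNAs alone in their locus. The share was higher in loci of 6 or more than in lncRNAs alone in all 5 animals, by 34.4 percentage points (exact sign-flip permutation test, two-sided p = 0.0625, the smallest it can give). Values of exactly 0 were rare, at 0.350% of the values of these lncRNAs, and the near-zero values were mostly tiny positive numbers. Near-zero values were more frequent on the right than on the left in 4 of 5 animals, by 6.53 percentage points (exact sign-flip permutation test, two-sided p = 0.125). In loci of 2 to 5 transcripts they were likewise more frequent on the right in all 5 animals, at 14.98% ± 2.08 on the left and 17.7% ± 1.54 on the right (SD, n = 5). The part of depth in these differences was not tested.

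In 5 loci a pair of transcripts was listed with identical levels in all 10 libraries, and each pair also had the same length. TCONS_00015000 and TCONS_00015001 of chr1:222799882-222858973, both of 3 exons and 1061 nt, lie on the minus strand, end at the same base and start at 222810518 and 222858973. No such pair was found in the loci of 2 to 5 transcripts.

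Changes between the hemispheres of a rat were larger for single isoforms than for lncRNAs with a locus of their own. The median absolute log2 change within an animal, on log2(FPKM + 0.1) and over transcripts with a mean of at least 0.1 FPKM, was 0.944 ± 0.129 (SD, n = 5 animals) in loci of 6 or more. It was 0.685 ± 0.0673 in loci of 2 to 5 and 0.511 ± 0.0916 for lncRNAs alone. The excess over lncRNAs alone was 0.433 and was present in all 5 animals (exact sign-flip permutation test, two-sided p = 0.0625, the smallest it can give). With a pseudocount of 1, which shrinks the change of low transcripts, the excess was 0.00506 (exact sign-flip permutation test, p = 0.8125). Within transcripts of a mean FPKM between 0.1 and 1 in both classes it was 0.311 (exact sign-flip permutation test, p = 0.0625).

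Summing a locus brought the changes down. The median absolute change of the 91 sums was 0.634 ± 0.175 (SD, n = 5 animals), lower than that of their single transcripts in all 5 animals by 0.310 (exact sign-flip permutation test, two-sided p = 0.0625). This difference turned to 0.206 in the other direction with a pseudocount of 1. A larger pseudocount shrinks the changes of low values more, and sums are higher than single isoforms. The part of this in the reversal was not tested. In 79 of the 91 loci the tested isoforms included at least 1 with a rise and at least 1 with a fall of the mean log2 level.

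**Figure D2:**
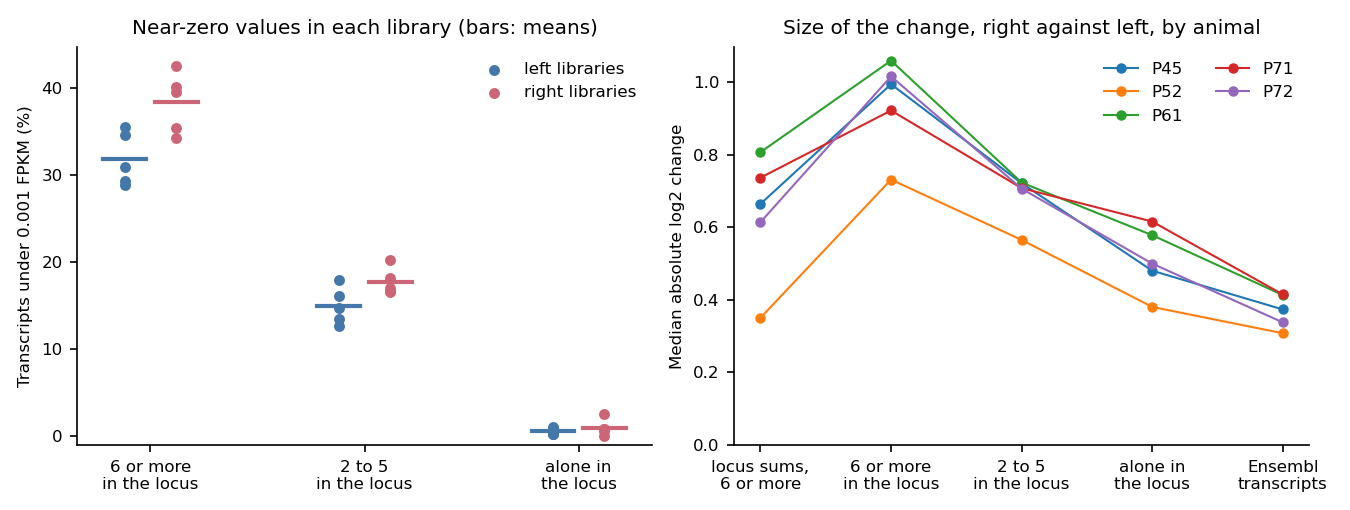
Left panel, percent of transcripts under 0.001 FPKM (y axis) in each library by the number of transcripts in the locus (x axis), with points for libraries and bars for the means of 5. Right panel, median absolute log2 change right against left (y axis) for each of 5 animals (lines) by class. The loci of 6 or more had the most near-zero values in every library, and in every animal their single transcripts had the largest median change, 0.731 to 1.06.

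As part of its search for networks of RNA regulation, the study asked which transcripts differ between ischemic and paired nonischemic tissue. Each locus sum was compared between right and left with limma on log2(FPKM + 0.1), with the animal as a block and with all other transcripts of the table in the same fit. No sum rose and 2 of 91 fell at a Benjamini-Hochberg adjusted p under 0.05. Over all 19916 features of that fit, 5.96% rose and 2.44% fell, against 0% and 2.20% of these loci. At an unadjusted p under 0.05, 3 sums were higher and 16 lower, against a background of 14.9% and 12.8%. All 5 animals gave a higher sum on the right in 1 locus and a lower sum in 10, against 14.2% and 11.4%.

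The sums leaned to the left hemisphere. The log2 change was below 0 in 71 of 91 loci (78.0%) with a median of -0.41. It was below 0 in 66.1% of the sums of loci of 2 to 5 (median -0.11), in 58.7% of lncRNAs alone in their locus (median -0.09) and in 50.9% of all features (median -0.01). By animal the median over the loci was -0.43 in P45, 0.00 in P52, -0.73 in P61, -0.26 in P71 and -0.17 in P72. Thus the lean was absent in P52. In bulk tissue, fewer cells that express a locus and less of its RNA per cell cannot be told apart. Depth was lower on the right in 4 of the 5 animals. The estimated log2 difference in depth, right minus left, was 0.0625 in P61, where the lean was largest. It was -0.19 in P52, where the lean was absent. Single pairs of libraries departed from these depth estimates by up to 0.0955, so the sign in P61 is not settled. With the estimated depth as a covariate the median was -0.44, and no sum passed the test. The cause of the lean was not tested.

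**Figure D3:**
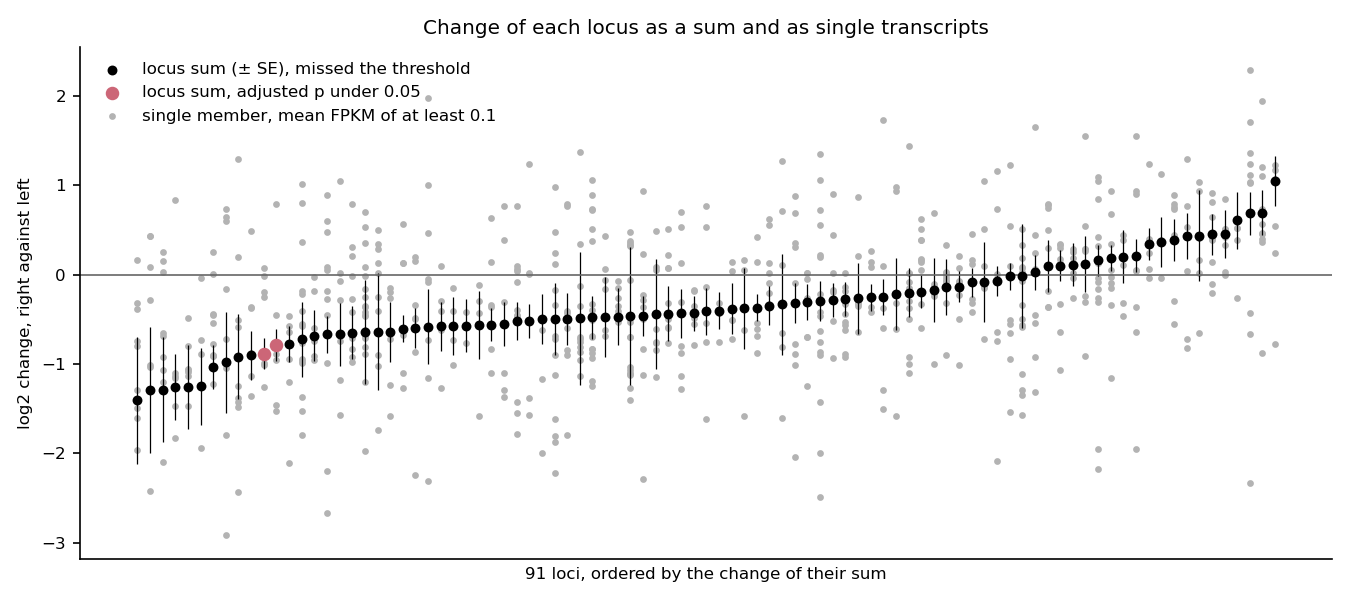
Log2 change right against left (y axis) of the 91 locus sums, ordered from lowest to highest (x axis), with black or red points and their SE, and of the single members with a mean of at least 0.1 FPKM as grey points above and below their locus. Of the sums, 71 lay below 0 and 2 passed the threshold (red), and single members of most loci scattered to both sides of 0.

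The locus chr20:15892462-15897676, of 7 transcripts on the plus strand, fell most clearly. Its sum was 3.93, 3.59, 3.397, 4.21 and 4.32 FPKM in the left libraries of P45, P52, P61, P71 and P72, and 1.49, 1.98, 2.07, 2.11 and 2.84 FPKM in their right libraries. Every right value was below every left value. The log2 change was -0.88 ± 0.17 (SE, limma, adjusted p = 0.0294). The locus is compact, with 97.2% of its exonic length in 2 or more transcripts, and TCONS_00064599 was its highest isoform in all 10 libraries.

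The estimated changes of its isoforms differed in size and sign, although no isoform share of any locus passed the test of shares given below. TCONS_00064599, of 2554 nt, joins a first exon of 109 nt to a last exon of 2445 nt and was at 1.71, 1.74, 1.64, 2.07 and 2.28 FPKM on the left and 0.482, 0.849, 1.05, 0.897 and 1.46 FPKM on the right. TCONS_00064361, of 4622 nt, starts at base 458 of the locus and was at 1.09, 0.504, 0.986, 1.19 and 0.341 FPKM on the left and 0.466, 0.276, 0.286, 0.600 and under 0.001 FPKM on the right. Their log2 changes were -0.98 and -1.25, and neither passed the test as a single transcript (limma, adjusted p = 0.0571 and 0.0653). TCONS_00065611, TCONS_00064839 and TCONS_00064838 were each under 0.001 FPKM in some libraries of both sides, with log2 changes of 0.08, -0.01 and -0.19. So the locus passed the test as a sum and none of its 7 isoforms did so singly.

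**Figure D4:**
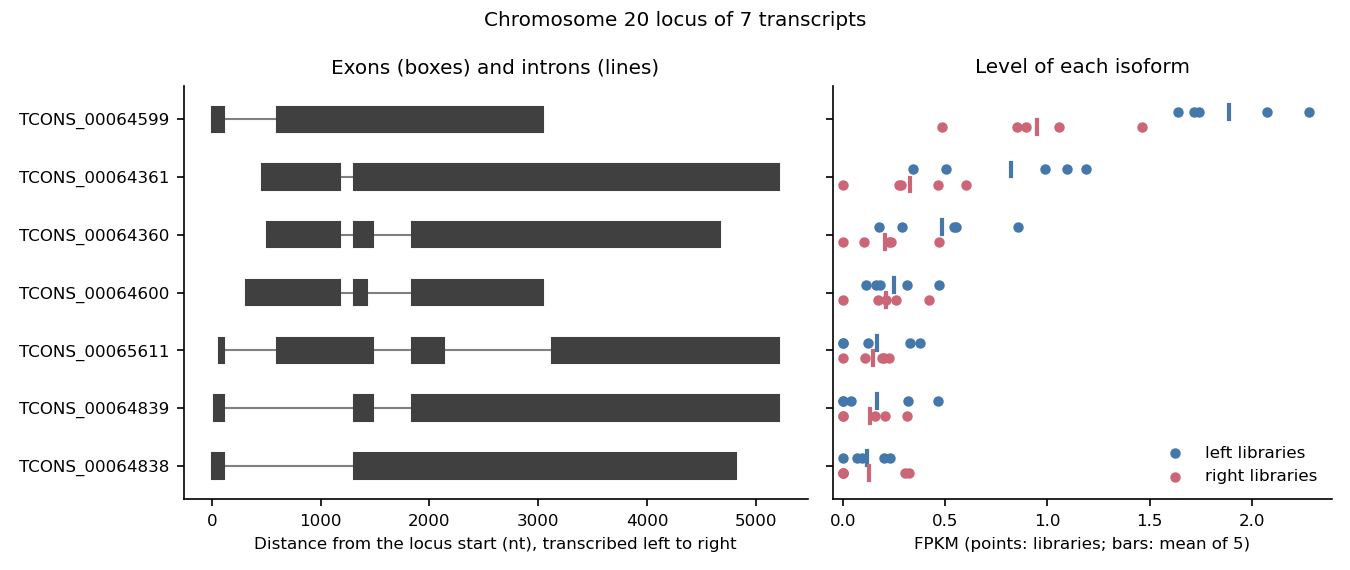
Left panel, exons (boxes) and introns (lines) of the 7 transcripts of chr20:15892462-15897676 by distance from the start of the locus in nt (x axis), ordered by mean level from the top. Right panel, FPKM (x axis) of the same transcripts in the left (blue) and right (red) libraries with the means of 5 as bars, where TCONS_00064599 shows right values of 0.482 to 1.46 below left values of 1.64 to 2.28.

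The other locus past the threshold was chr3:92675886-93039462, of 6 transcripts on the plus strand. Its sum was 2.79, 2.56, 2.42, 3.77 and 2.12 FPKM on the left and 1.35, 1.305, 1.34, 2.84 and 1.16 FPKM on the right, in the order P45, P52, P61, P71 and P72. It was lower on the right in every animal, while the right value of P71 lay above the left values of 4 other animals. The log2 change was -0.78 ± 0.18 (SE, limma, adjusted p = 0.0432). Of its isoforms, 5 had a negative and 1, TCONS_00069226, a positive log2 change (-1.52 to 0.79), and none passed the test singly.

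The next loci in order of p missed the threshold. Downwards it was chr14:99886087-99960818 (13 transcripts), at 3.32 ± 0.764 FPKM on the left and 1.75 ± 0.937 FPKM on the right (SD, n = 5), lower in all 5 animals with a log2 change of -1.03 ± 0.25 (SE, limma, adjusted p = 0.0527). Upwards it was chr7:23177044-23185566 (6 transcripts), at 0.742, 1.56, 1.23, 1.18 and 1.45 FPKM on the left and 2.66, 3.55, 2.84, 3.02 and 1.43 FPKM on the right. Its right value exceeded the left in 4 animals and not in P72, and the log2 change was 1.05 ± 0.28 (SE, limma, adjusted p = 0.0650). Without P72 it passed the test (limma, adjusted p = 0.0231). As P72 was the only animal that did not rise, this pass is no independent support. The sums of chr7:103219567-103441925 (10 transcripts) and chr10:58026446-58070490 (13 transcripts) had log2 changes of 0.69 ± 0.24 and 0.69 ± 0.25 (SE, limma, adjusted p = 0.124 and 0.137).

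As single transcripts, 1 of the 729 tested rose and 5 fell at an adjusted p under 0.05. Over all 20936 transcripts of the fit 5.52% rose and 2.19% fell against 0.137% and 0.686% of these lncRNAs. When the values were rescaled to the same sum in every library (TPM), the calls of the whole table moved from 1155 up and 459 down to 1291 up and 279 down, and those of these lncRNAs from 1 up and 5 down to 1 up and 6 down. An unadjusted p under 0.05 was reached by 11 upwards and 73 downwards (background 14.1% and 12.5%). All 5 animals moved up in 17 and down in 48 (background 13.7% and 11.1%). The median log2 change was -0.29, against -0.12 in loci of 2 to 5, -0.09 for lncRNAs alone in their locus and -0.01 over all transcripts tested.

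TCONS_00023524, a transcript of 2 exons and 1146 nt in chr10:58026446-58070490, was the member that rose. It was at 0.165 FPKM in the left library of P61 and under 0.001 FPKM in the other 4 left libraries. On the right it was at 0.360, 0.225, 0.644, 0.6998 and 0.157 FPKM in P45, P52, P61, P71 and P72. It was thus higher on the right in every animal, with a log2 change of 1.95 ± 0.40 (SE, limma, adjusted p = 0.0350). The leading isoform of that locus, TCONS_00018517, held 24.8% to 43.2% of it and was its highest in all 10 libraries.

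TCONS_00101013, of 9 exons and 1796 nt in chr7:103219567-103441925, had the lowest p of the members. It was at 0.518, 0.714, 1.41, 0.157 and 0.855 FPKM on the left. On the right it was under 0.001 FPKM in P45, P52 and P71, 0.276 FPKM in P61 and 0.0517 FPKM in P72. Every animal fell, with a log2 change of -2.33 ± 0.37 (SE, limma, adjusted p = 0.0184).

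Other isoforms of that locus went the opposite way. TCONS_00099832, of 9 exons and 3263 nt, was at 0.0619, 0.180, 0.396, 0.387 and 0.411 FPKM on the left and 0.588, 0.456, 0.805, 0.762 and 1.26 FPKM on the right, with no overlap between the sides. Its log2 change was 1.24 ± 0.31 (SE, limma, adjusted p = 0.0633), which missed the threshold. TCONS_00101015, which lacks the upstream part of the locus and ends at the same base as TCONS_00101013, was higher on the right in all 5 animals, with a log2 change of 1.71 ± 0.46 (SE, limma, adjusted p = 0.0738). Of the 10 isoforms, 7 had a positive log2 change, and the locus sum was higher on the right in 4 of 5 animals. The fall of TCONS_00101013 was thus opposite in sign to the change of its locus sum.

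**Figure D5:**
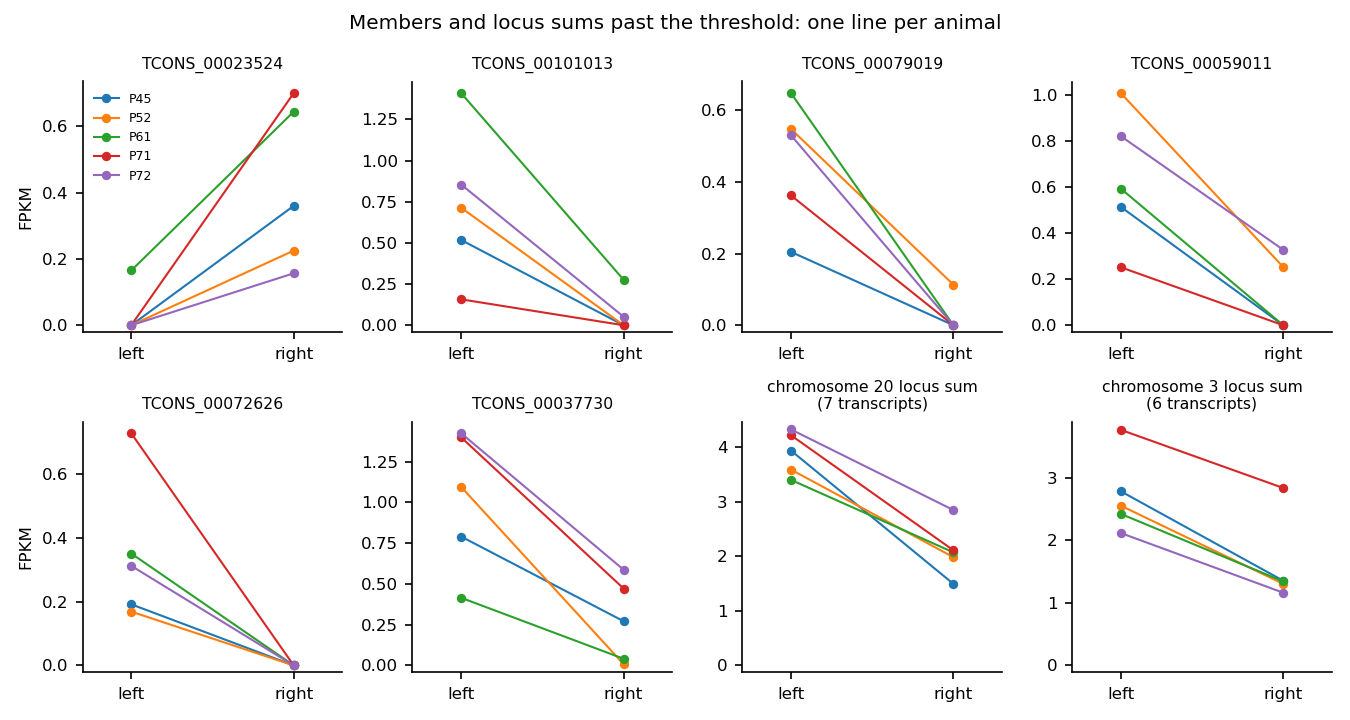
FPKM (y axis) in the left and right hemisphere (x axis) of the 6 transcripts and 2 locus sums past the threshold, with 1 line per animal. All lines of a panel run in 1 direction, and in TCONS_00072626 all 5 right values are under 0.001 FPKM.

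The other members that fell were low, and 3 of these 4 were under 0.001 FPKM in at least 3 right libraries. TCONS_00079019 (6 exons, 1733 nt, in chr4:197492295-197497188) was at 0.205, 0.548, 0.648, 0.363 and 0.531 FPKM on the left, and on the right at 0.113 FPKM in P52 and under 0.001 FPKM in the other 4 libraries. Its sides did not overlap and its log2 change was -2.20 ± 0.38 (SE, limma, adjusted p = 0.0225). TCONS_00059011 (9 exons, 1843 nt, in chr2:242267444-242484996) was at 0.252 to 1.01 FPKM on the left, and on the right at 0.253 FPKM in P52, 0.327 FPKM in P72 and under 0.001 FPKM in the other 3. Every animal fell, and the log2 change was -1.997 ± 0.38 (SE, limma, adjusted p = 0.0289). The sum of its locus had a log2 change of -0.29 ± 0.22 (SE, limma, adjusted p = 0.439).

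TCONS_00072626 (3 exons, 2713 nt, in chr3:138994697-139109810) was at 0.191, 0.168, 0.350, 0.727 and 0.312 FPKM on the left and under 0.001 FPKM in all 5 right libraries. No fold is given against such a side, and the fitted log2 change of -2.05 ± 0.40 (SE, limma, adjusted p = 0.0318) depends on the pseudocount. TCONS_00037730 (3 exons, 1523 nt, in chr14:6768853-6786819) was at 0.790, 1.09, 0.415, 1.40 and 1.42 FPKM on the left and 0.271, 0.00812, 0.0411, 0.472 and 0.587 FPKM on the right. It fell in all 5 animals, although the sides overlapped, with a log2 change of -1.83 ± 0.42 (SE, limma, adjusted p = 0.0476).

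These calls were fragile to the loss of an animal. Without P45, P52, P61, P71 or P72 the single transcripts called were 2, 0, 2, 2 and 7, and the locus sums called were 0, 1, 0, 0 and 5. With the estimated depth as a covariate none passed, and without the animal block 14 transcripts and 5 sums did. The calls over all features under these settings are not given here. Whether such shifts were particular to these lncRNAs was not tested.

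The division of a locus was also tested directly, as the log2 ratio of each isoform to the rest of its locus. Neither direction gave a call among the members (limma, lowest adjusted p = 0.713), and the background was 0% upwards and 0% downwards over the 1566 lncRNAs of loci with 2 or more transcripts. At an unadjusted p under 0.05, 37 members had a higher and 28 a lower share on the right, against a background of 3.38% and 2.87%. The lowest p downwards was that of TCONS_00101013, whose share of its locus was 15.5% ± 7.78 (SD, n = 5) on the left and 0.893% ± 1.76 on the right. TCONS_00059011 followed with 6.53% ± 3.39 and 1.03% ± 1.51. Upwards the lowest p values were those of TCONS_00063164 in chr2:167549180-167769336, at 2.53% ± 5.65 and 11.7% ± 12.4, and TCONS_00037033 in chr14:109499980-110010889, at under 0.001% and 3.22% ± 4.99. TCONS_00037033 was above 0.001 FPKM in only 2 libraries, the right ones of P45 (0.262 FPKM) and P52 (0.823 FPKM).

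The estimated number of isoforms in use was slightly lower on the right. It was measured as the effective number, the inverse of the summed squared shares, which equals the number of isoforms if all are equally high. The median over the 91 loci was 4.06 ± 0.254 (SD, n = 5) on the left and 3.76 ± 0.309 on the right, lower on the right in all 5 animals by 0.302 (exact sign-flip permutation test, two-sided p = 0.0625, the smallest it can give). The fall was 0.0115 to 0.632 in size. It was largest in P61 (4.002 on the left, 3.37 on the right) and smallest in P72, and the part of depth in it was not tested. In loci of 2 to 5 transcripts the median was 1.87 ± 0.0340 on the left and 1.83 ± 0.0449 on the right (SD, n = 5). There it was lower on the right in every animal but P61. The part of the 91 loci in the FPKM of all assembled lncRNAs was 21.9% ± 1.10 on the left and 20.3% ± 3.16 on the right. This was a difference of -1.58 percentage points with 3 of 5 animals lower (exact sign-flip permutation test, two-sided p = 0.375).

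The study singled out 4 of these lncRNAs, by PCR primers or in its list of most significant lncRNAs. These 4 lncRNAs were chosen on these samples, so their direction here is not independent evidence. For those with primers, the study reports that PCR in another cohort of paired brains bore out their existence and expression patterns. Those PCR values were not used here. The study called lncRNAs at P under 0.05 in a paired comparison and states no adjustment for the number of transcripts. The p values given here for these lncRNAs and their loci are adjusted over all features of the fit. These criteria differ, so a miss of the threshold here does not contradict the calls of the study. TCONS_00063685, of 4 exons and 7214 nt, was at 1.38, 0.991, 1.304, 1.41 and 1.26 FPKM on the left and 0.750, 0.537, 0.698, 0.937 and 0.621 FPKM on the right. Its sides did not overlap, yet its log2 change of -0.77 ± 0.21 missed the threshold (SE, limma, adjusted p = 0.0779). It held 35.6% to 100% of chr20:33523962-33531803, whose 7-transcript sum had a log2 change of -0.57 ± 0.30 (SE, limma, adjusted p = 0.269). When the sum was weighted by transcript length the locus passed (limma, adjusted p = 0.0380). This weighting was chosen after the data were seen. It gives the largest weight to TCONS_00063685, the longest transcript of the locus, so it adds little beyond that transcript.

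TCONS_00078206, of 5 exons and 2273 nt, lies in chr4:197492295-197497188 beside TCONS_00079019. It was at 1.87, 1.40, 1.11, 1.89 and 0.851 FPKM on the left, and on the right at 0.520 FPKM in P52, 0.846 FPKM in P61, 0.0122 FPKM in P72 and under 0.001 FPKM in P45 and P71. Its log2 change was -2.67 ± 0.67 (SE, limma, adjusted p = 0.0606). The sum over the 13 transcripts of the locus was 5.80 ± 0.986 FPKM on the left and 3.65 ± 0.893 FPKM on the right (SD, n = 5), with a log2 change of -0.67 ± 0.21 (SE, limma, adjusted p = 0.0973). TCONS_00076795 was the highest isoform of that locus on average and held 1.20% to 34.9% of it.

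TCONS_00034914, of 4 exons and 3204 nt, was at 1.35, 0.791, 0.671, 0.748 and 0.974 FPKM on the left and 0.0163, 0.626, 0.314, 0.104 and 0.668 FPKM on the right. Its log2 change was -1.47 ± 0.54 (SE, limma, adjusted p = 0.145). The sum of its locus, chr14:6768853-6786819, which also holds TCONS_00037730, was lower on the right in all 5 animals with a log2 change of -1.26 ± 0.37 (SE, limma, adjusted p = 0.0838).

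TCONS_00092323, of 3 exons and 4567 nt, was at 0.555 to 1.17 FPKM in all left libraries. On the right it was at 2.82 FPKM in P45 and at 0.00801 FPKM or less in the other 4 animals, so that P45 alone went up. Its log2 change was -2.10 ± 0.84 (SE, limma, adjusted p = 0.171) and passed the test without P45 (limma, adjusted p = 0.0376). That pass leaves out the only animal that went up, and is no independent support. In that same right library TCONS_00090185, an isoform of the same locus, stood at 0.151 FPKM, while the other right libraries gave 1.92 to 3.41 FPKM. The 6-transcript sum of the locus, chr6:62066340-62081692, was 20.2, 13.5, 13.7, 19.2 and 10.2 FPKM on the left and 12.7, 10.2, 5.34, 7.59 and 9.15 FPKM on the right. It was lower on the right in all 5 animals, P45 included, with a log2 change of -0.78 ± 0.20 (SE, limma, adjusted p = 0.0645).

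The 5 loci with the most transcripts had no call between the hemispheres. The 29-transcript locus chr2:126503053-126791939 summed to 7.54 ± 1.84 FPKM on the left and 5.47 ± 1.73 FPKM on the right (SD, n = 5), with a log2 change of -0.48 ± 0.24 (SE, limma, adjusted p = 0.255). Its leading isoform, TCONS_00056883 of 432 nt, held 7.13% to 49.0%, and 2 isoforms were the highest across the libraries. The sum of chr10:25789351-26253611 ranged from 0.665 to 13.7 FPKM on the left and from 1.78 to 11.6 FPKM on the right, and that of chr1:132545572-132715477 from 4.44 to 15.4 FPKM and from 1.87 to 13.98 FPKM. At chr10:25789351-26253611 the right range lay within the left range, and at chr1:132545572-132715477 the ranges overlapped in large part. In chr13:91877020-91976319, with sums of 3.09 ± 0.493 and 2.13 ± 1.02 FPKM, 9 different isoforms were the highest across the 10 libraries. In chr14:109499980-110010889, with sums of 6.40 ± 1.53 and 4.32 ± 2.36 FPKM, there were 6. Outside the naming rule, and chosen after its values were seen, the 14-transcript locus chr1:122769279-123390657 summed to 19.1 ± 2.69 FPKM on the left and 18.9 ± 10.8 FPKM on the right, with a log2 change of -0.20 ± 0.27 (SE, limma, adjusted p = 0.679).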

How the data were processed

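Total RNA of left and right brain tissue of 5 rats was sequenced, and per the labels the submitters used TopHat2, Cufflinks and the rn5 build. The authors assembled transcripts with Cufflinks, kept those found in at least 5 samples and called 1924 noncoding. The deposited table holds the FPKM values of Ensembl and assembled transcripts in 10 libraries, and the deposited positions of the lncRNAs gave the exons. Whether the libraries marked strand is not given in the sources used here.

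FPKM were analysed as log2(FPKM + 0.1) for features with a mean of at least 0.1 FPKM, with limma 3.58.1 in R 4.3.3, an animal block, moderated variances and Benjamini-Hochberg adjustment over all features, at a threshold of 0.05. Isoform ratios were fitted for loci with a mean sum of at least 0.5 FPKM. Single values per library were compared with exact sign-flip tests. The numbers in the titles pair the hemispheres of a rat, although the deviations of paired libraries from the means of their sides correlated at only -0.128 to 0.177. Data were also simulated with a log2 change of 2 in 200 features drawn from all those of each fit. The change was recovered in 148 of 200 transcripts among 20936 and in 141 of 200 sums among 19916. Among 1566 isoform ratios it was recovered in 69 of 200. Unchanged features that were called numbered 10, 12 and 1 in these fits. Recovery among the lncRNAs described here alone was not measured.

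Loci, transcripts and shares were named by rank of size, level and p, with those the study named. The members, lists and tests were chosen with earlier results of these data known. A check of the tissue by cell markers was not made, because no table used here pairs the transcript identifiers with gene symbols. The 10 libraries are taken as 5 biological replicates of each side.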

Additional observations from a re-analysis of the deposited data

Results flagged for a closer look

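The named transcripts, locus sums and library summaries gave 70 groups of 5 libraries. In 7 of them 1 library stood far from the other 4. The measure was Dixon's ratio of the gap to the range, above 0.71, with values under 0.001 FPKM taken as 0. For independent groups of normal values about 1 in 20, or 3.5, would be expected. Some of these groups share loci, and 4 values of 0 give a ratio of 1 by construction. The count of 3.5 is therefore not a measure of chance for these groups. TCONS_00023524 was at 0.165 FPKM in the left library of P61 and near 0 in the other 4 (ratio 1), and TCONS_00079019 at 0.113 FPKM in the right library of P52 and near 0 in the other 4 (ratio 1). On the right, TCONS_00092323 was at 2.82 FPKM in P45 against at most 0.00801 FPKM (ratio 0.997), and TCONS_00101013 at 0.276 FPKM in P61 against at most 0.0517 FPKM (ratio 0.813). The sum of chr10:25789351-26253611 was 11.6 FPKM in the right library of P45, against 1.78 to 3.54 FPKM (ratio 0.820). The sum of chr3:92675886-93039462 was 2.84 FPKM in the right library of P71, against 1.16 to 1.35 FPKM (ratio 0.886), and that of chr7:103219567-103441925 was 11.7 FPKM in the right library of P72, against 6.17 to 7.63 FPKM (ratio 0.738). All but 1 of these libraries were from the right hemisphere.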

How the results depend on the processing

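The 6 single transcripts called became 0 with a filter at a mean of 1 FPKM (limma, 13 at an unadjusted p under 0.05), because this filter leaves out all 6, whose means are 0.175 to 0.650 FPKM, and 2 without moderated variances. Without the animal block, that is without the pairing, they became 14, and leaving out an animal gave 0 to 7. The 2 locus sums called became 4 with a filter at a mean of 1 FPKM, 1 with a filter above 0 in any library, 1 after rescaling to TPM, 5 without the pairing, 0 without moderated variances (limma, 10 at an unadjusted p under 0.05) and 0 to 5 without an animal. Among loci of at least 8 transcripts the count was 0 by construction (10 at an unadjusted p under 0.05), since the 2 called loci hold 7 and 6. Alternatives chosen after seeing the data gave 0 transcripts and 0 sums with depth as a covariate (60 and 4 at an unadjusted p under 0.05) and 4 sums with weights by length. Apart from single transcripts rescaled to TPM, the calls over all features under these alternatives are not given here. No isoform share was called under any of the 14 alternatives. The same isoform was highest in all libraries in 6 loci when it had to lead by 1.5 times, and in 6 among loci of at least 8 transcripts. The excess of near-zero values over lncRNAs alone became -0.348 percentage points when only exact zeros were counted, and the smaller change of sums turned to 0.206 with a pseudocount of 1. The cause of these differences was not tested except where stated.

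Of 524 alternative values of the 36 named features, 517 kept their direction. The log2 change of 3 sums without a call changed sign, to 0.102 and 0.107 for chr10:25789351-26253611 without P61 and without P71 (down to -1.14 without P72), to 0.168 for chr1:132545572-132715477 with the depth covariate, and for chr2:51666900-51880288 to 0.0464 with TPM, 0.0973 without P52, 0.324 without P61 and 0.365 without P71 (down to -0.65 without P72). Of 40 values of the 8 called features with an animal left out, 6 passed the threshold. FPKM without read counts give no counting error, and the levels near 0 limit what can be said of single isoforms.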
